A study of Mus musculus with 12 samples.

Results

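The transcripts of 10 transcription factor genes were followed in sorted neonatal cardiomyocytes: Gata4, Gata6, Nkx2-5, Tbx5, Tbx20, Hand2, Mef2a, Mef2c, Mef2d and Meis1. They were chosen by symbol, as 9 factors of the cardiac transcriptional network and Meis1, and make up 10 of the 24421 genes in the count tables. All 10 passed the filter on low counts and were among the 12252 genes tested. The data were 12 RNA-seq libraries from mouse hearts at postnatal day 1, on a CD1 background. All hearts carried αMHC-Cre and a R26 YFP reporter, so YFP+ cells descend from cells in which the α-myosin heavy chain promoter was active, and Glut1 transgenic hearts carried in addition αMHC-hGLUT1, human GLUT1 under that promoter. YFP+ cells were sorted by Mitotracker, a dye of mitochondria, into Tnnt2low (higher Mitotracker) and Tnnt2high (lower Mitotracker) cardiomyocytes, which follows the pairing in the study's text, since the labels give the Mitotracker signal only. There were 4 libraries of each population from Glut1 transgenic hearts, in which each heart gave both populations, and 2 of each from WT hearts. The WT labels share a leading heart number, so the 2 WT libraries of a population may come from 1 heart, and n = 2 counts libraries.

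GATA factors are zinc finger proteins, Nkx2-5 and Meis1 are homeodomain proteins, Tbx5 and Tbx20 carry a T-box, Hand2 is a basic helix-loop-helix factor and the MEF2 proteins bind DNA through a MADS box. In the heart these factors bind together at the enhancers of contractile, conduction and natriuretic peptide genes and act on one another's genes. Meis1 is known for promoting the exit of mouse cardiomyocytes from the cell cycle after birth, with cyclin-dependent kinase inhibitors among its targets.

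In Glut1 transgenic hearts, Mef2a, Mef2d and Tbx20 were higher in Tnnt2low than in Tnnt2high cardiomyocytes, by 1.4-fold to 1.56-fold, and none of the 10 genes was called lower. None of the 10 passed the test in WT hearts, between the genotypes, or for a difference of the population effect between genotypes. The 3 calls ended when each library was corrected for a trend with transcript length and GC content, and with the heart as a block beside that correction Mef2a alone was called. To show what lies at the start of the 3 called genes, their promoters are printed as RefSeq gives them on GRCm38.p6, from 250 bases before to 50 bases after the annotated start, 5′ to 3′ on the gene's strand. Capitals mark a match to the MEF2 motif. They are Mef2a at chr7:67372809-67373108 on the minus strand, Mef2d at chr3:88142122-88142421 on the plus strand and Tbx20 at chr9:24774254-24774553 on the minus strand.
Mef2a: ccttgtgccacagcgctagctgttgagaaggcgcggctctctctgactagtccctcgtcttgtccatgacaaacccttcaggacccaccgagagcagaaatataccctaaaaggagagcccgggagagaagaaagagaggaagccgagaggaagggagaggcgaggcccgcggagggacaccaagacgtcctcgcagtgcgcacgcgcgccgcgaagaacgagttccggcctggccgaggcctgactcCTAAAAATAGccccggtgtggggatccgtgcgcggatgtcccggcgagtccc
Mef2d: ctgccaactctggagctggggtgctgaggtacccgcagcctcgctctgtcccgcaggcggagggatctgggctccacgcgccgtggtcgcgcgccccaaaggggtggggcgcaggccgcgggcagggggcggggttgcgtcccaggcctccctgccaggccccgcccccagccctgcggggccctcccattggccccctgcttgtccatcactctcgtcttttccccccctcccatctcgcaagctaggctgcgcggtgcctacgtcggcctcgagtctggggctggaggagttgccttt
Tbx20: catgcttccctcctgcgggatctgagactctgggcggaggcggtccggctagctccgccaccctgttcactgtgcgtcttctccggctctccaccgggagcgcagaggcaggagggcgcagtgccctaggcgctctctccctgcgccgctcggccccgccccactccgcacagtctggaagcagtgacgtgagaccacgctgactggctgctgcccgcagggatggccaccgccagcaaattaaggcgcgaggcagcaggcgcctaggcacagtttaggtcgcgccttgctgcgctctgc
The table held promoters for 7 of the 10 genes, and Gata4, Gata6 and Tbx5 had none. These motifs were searched on both strands: the MEF2 motif and the CArG box by name, AGATAA for GATA factors, AGGTGT for the T-box, AAGTGG for NK2 factors, TGACAG for Meis and CANNTG, the E-box of helix-loop-helix factors. Among the promoters of these genes the MEF2 motif was in that of Mef2a alone, read on either strand, from 2 bases before the annotated start to 7 bases after it. Of the 32851 promoters in the table, 3.19% held it. The Mef2d and Tbx20 windows matched none of the searched motifs. The GC content of the 3 windows was 62.3% for Mef2a, 72.0% for Mef2d and 68.3% for Tbx20.

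Reads assigned to genes numbered 4065306 to 9815069 per library, and each of the 10 genes was counted at 87 reads (Tbx5) or more in every library. The populations differed in reads outside every annotated exon. For each read in a gene these numbered 0.886 to 1.07 in Tnnt2low and 2.26 to 2.63 in Tnnt2high libraries of Glut1 transgenic hearts, 1.13 and 1.5 in WT Tnnt2low and 1.83 and 1.51 in WT Tnnt2high libraries. Cardiomyocyte markers were high in every library. The summed level of 8 of them, Tnnt2, Myh6, Actn2, Ttn, Ryr2, Pln, Tnni3 and Myl3, was 114000.3 to 145932.4 CPM (counts scaled to library size by the TMM method) over the 12 libraries. Between the populations of Glut1 transgenic hearts 1 of the 8 was called higher in Tnnt2low cells (Ryr2) and 3 lower (Tnni3, Myl3 and Tnnt2, the last at -0.42 on the log2 scale). Markers of other cells summed to far less. In Glut1 transgenic hearts those of fibroblasts and endothelial cells were lower in Tnnt2low cells for 8 of 8 genes each by their estimates. The sum of 8 fibroblast markers was 46.4 to 99.8 CPM in Tnnt2low and 149.2 to 897.8 CPM in Tnnt2high libraries of these hearts. Of the 8, 5 were called lower in their Tnnt2low cells, and none was at 0 in either group. In WT libraries the fibroblast sums overlapped, at 152.2 and 106.8 CPM in Tnnt2low and 465.1 and 103.0 CPM in Tnnt2high. By the WT estimates 7 of the 8 were lower in Tnnt2low cells, 0 were called, and 1 was at 0 in WT Tnnt2low. The sum of 8 endothelial markers was 8.99 to 78.5 CPM in Tnnt2low and 29.5 to 242.8 CPM in Tnnt2high libraries of Glut1 transgenic hearts. It was 85.8 and 13.3 CPM in WT Tnnt2low and 332.9 and 15.5 CPM in WT Tnnt2high libraries. None of these markers passed the test between the populations or was at 0. The sum of 6 smooth muscle and pericyte markers was 901.6 to 1125.2 CPM in Glut1 transgenic Tnnt2low and 1045.2 to 1610.9 CPM in Glut1 transgenic Tnnt2high libraries. It was 918.9 and 1084.9 CPM in WT Tnnt2low and 1214.7 and 1069.1 CPM in WT Tnnt2high libraries. Of 5 tested between the Glut1 transgenic populations, with a median log2 fold change of -1.99, Pdgfrb was called lower and Cspg4 higher in Tnnt2low cells. Mean levels in Tnnt2low and Tnnt2high were 1.5 and 8.3 CPM for Pdgfrb and 97.4 and 69.3 CPM for Cspg4. The median weighs each gene alike and does not describe the sum, which follows the most abundant genes. Leukocyte markers summed to at most 8.07 CPM in any library and epicardial markers to at most 8.68 CPM, with 3 of 5 epicardial markers at 0 in Glut1 transgenic Tnnt2high libraries. Their part in the results on the 10 genes was not tested. In bulk libraries fewer cells of a type and less RNA per cell cannot be told apart. Mouse Slc2a1, the endogenous gene for GLUT1, took 33.5 to 92.5 CPM in Glut1 transgenic and 13.3 to 28.9 CPM in WT libraries, and whether reads of the human transgene were assigned to it was not tested.

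Per kilobase of exon, Nkx2-5, Gata4 and Hand2 stood highest and Tbx5, Mef2c and Meis1 lowest. Levels in CPM for each kilobase of the union of a gene's exons were 80.0 ± 9.49 (SD over 12 libraries) for Nkx2-5, 68.0 ± 10.1 for Gata4 and 62.1 ± 7.89 for Hand2. They were 34.0 ± 6.15 for Tbx20, 27.1 ± 3.28 for Gata6, 26.9 ± 6.02 for Mef2a and 21.9 ± 4.76 for Mef2d. The lowest were 8.1 ± 1.8 for Tbx5, 5.11 ± 0.67 for Mef2c and 4.56 ± 1.03 for Meis1. These means weight the groups by their libraries, and in Glut1 transgenic Tnnt2low libraries Gata4 (77.0 ± 9.01, SD, n = 4) had a higher mean than Nkx2-5 (75.0 ± 8.49). With the union of exons the order within a library was steady at its large steps. Hand2 was above Tbx20, Mef2d above Tbx5 and Tbx5 above Mef2c in 12 of 12 libraries. Gata4 and Hand2, Gata6 and Mef2a, and Mef2c and Meis1 changed places between libraries, with the upper gene higher in 7 of 12. The order also rests on the length used, because the exons of Mef2a and Mef2c join to 14681 and 15715 bases, while their longest transcripts have 5538 and 6277. With the longest annotated transcript in place of the union of exons, Mef2a stood at 71.4 and Mef2c at 12.8 CPM for each kilobase. Mef2a thereby moved from place 6 to place 3 and Mef2c from 9 to 8. The step between Tbx5 and Mef2c turned with this length, and Mef2c was above Tbx5 in 11 of 12 libraries. Meis1 had the lowest mean of the 10 under both lengths.

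**Figure D1:**
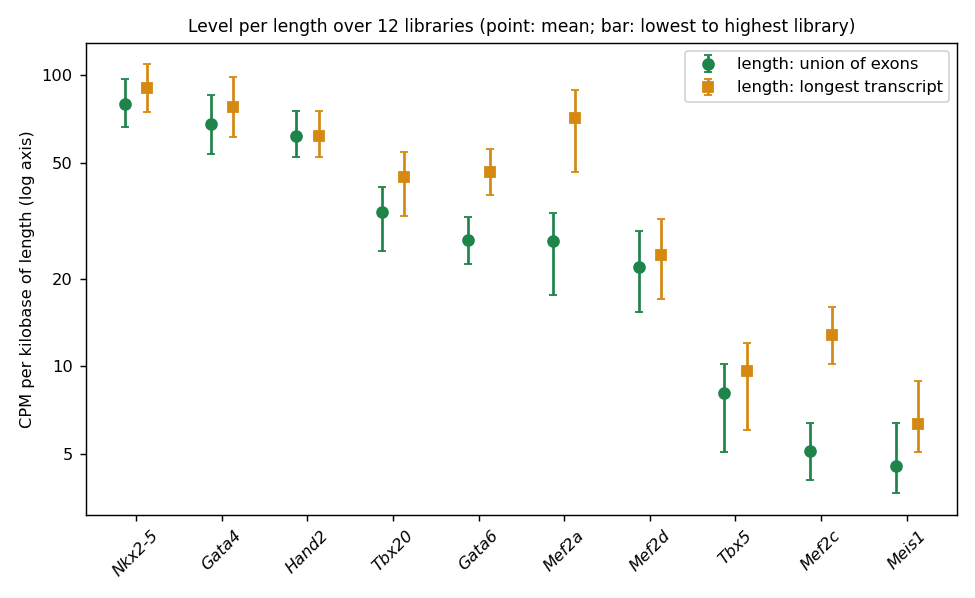
Level per length of the 10 genes on a log axis, in CPM for each kilobase of length. Points are means over 12 libraries with the union of exons (circles) or the longest transcript (squares) as the length, and bars run from the lowest to the highest library. By these means Nkx2-5 is highest and Meis1 lowest under both, and Mef2a shifts from 26.9 to 71.4.

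The first question was whether the factors differ between the 2 cardiomyocyte populations of the same Glut1 transgenic hearts. A gene was called at a Benjamini-Hochberg adjusted p under 0.05 over the 12252 genes tested, from edgeR's quasi-likelihood test. Of the 10 genes, 3 were called higher in Tnnt2low cells, where 8.42% of all tested genes were, and 0 lower, where 8.33% of all were. Of the 10, 4 had an unadjusted p under 0.05, as did 1918 genes higher and 1880 lower of all 12252, and DESeq2 likewise called none of the 10 lower. The median log2 fold change was 0.32 over the 10 genes, with 8 above and 2 below 0, and -0.006 over all tested genes. For 5 of the 10, Mef2a, Mef2d, Mef2c, Tbx20 and Gata4, every Tnnt2low library lay above every Tnnt2high library, which held for 11.2% of all tested genes.

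MEF2 factors are effectors of calcium and stress signalling in muscle, held in check by class II histone deacetylases. Mef2a (chr7:67231163-67372858, minus strand, GRCm38) stood at 483.4, 487.7, 448.0 and 426.3 CPM in the Tnnt2low libraries of Glut1 transgenic hearts and at 307.7, 297.9, 319.9 and 314.4 CPM in the Tnnt2high libraries of the same hearts. The 2 populations were separated by over 100 CPM, more than the spread within either. The log2 fold change of Mef2a was 0.57 (standard error 0.15, adjusted p = 0.0172). Within hearts it was 0.44 to 0.71 and positive in 4 of 4. Without Tnnt2low replicate 1 the log2 fold change of Mef2a was 0.55 and the adjusted p 0.0501.

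Mef2d (chr3:88142372-88172086, plus strand) showed the largest difference of the 10. It stood at 162.8, 156.8, 137.7 and 174.0 CPM in Tnnt2low and at 92.2, 107.3, 110.6 and 95.1 CPM in Tnnt2high libraries of Glut1 transgenic hearts, again without overlap. The log2 fold change was 0.64 (standard error 0.13, adjusted p = 0.0051). Within hearts it was 0.32 to 0.87 and positive in 4 of 4. The antisense transcript 1700113A16Rik covers 8.9% of its exon bases on the opposite strand, and since the strand setting of the counting is not given, reads of the 2 cannot be told apart there. Lysmd4 covers 2.1% of the Mef2a exon bases in the same way.

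Mef2c (chr13:83504034-83667080, plus strand), the member of the family needed earliest in heart development, stood at 100.3, 83.3, 81.5 and 88.0 CPM in Tnnt2low and at 67.6, 71.2, 72.9 and 78.5 CPM in Tnnt2high libraries. These did not overlap, but the difference did not pass the test, at 0.28 on the log2 scale (standard error 0.14, adjusted p = 0.169). The 3 family members shared no stretch of 50 bases, the read length, with one another, so reads without mismatches could be told apart between them.

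**Figure D2:**
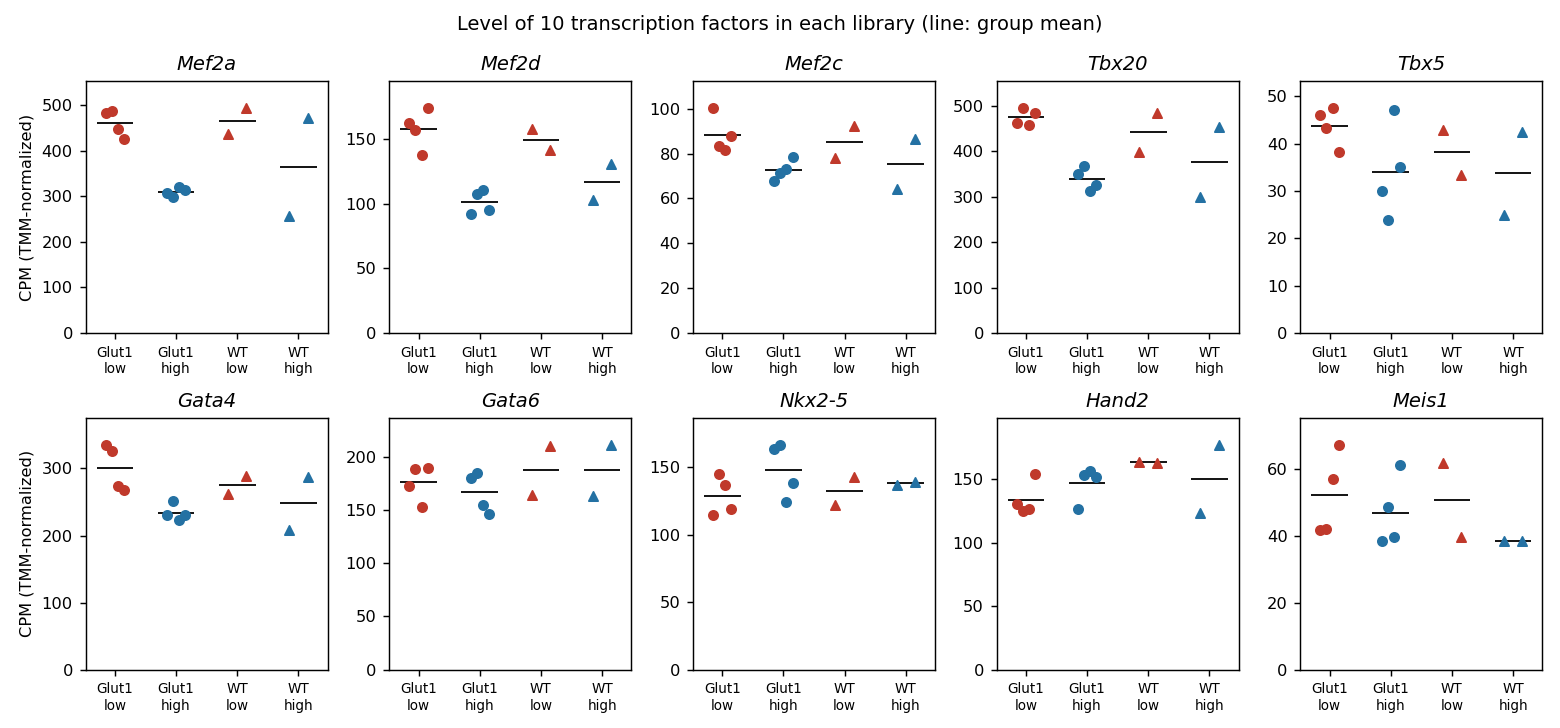
Level of each of the 10 genes in each of the 12 libraries, in TMM-normalized CPM on axes that start at 0. Circles are Glut1 transgenic and triangles WT libraries, red is Tnnt2low and blue Tnnt2high, and lines mark group means. In Glut1 transgenic hearts the red and blue points do not overlap for Mef2a, Mef2d, Mef2c, Tbx20 and Gata4, and WT Tnnt2high libraries lie far apart for Mef2a (257.9 and 472.4 CPM) and Tbx20 (299.4 and 454.4 CPM).

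Tbx20 (chr9:24718138-24774303, minus strand), a T-box factor required for growth and upkeep of the myocardium, stood at 462.9, 495.1, 457.9 and 484.8 CPM in Tnnt2low and at 349.5, 368.6, 311.9 and 325.1 CPM in Tnnt2high libraries of Glut1 transgenic hearts. The lowest Tnnt2low library was well above the highest Tnnt2high library. The log2 fold change was 0.49 (standard error 0.13, adjusted p = 0.0185), positive in 4 of 4 hearts at 0.41 to 0.58. Without Tnnt2low replicate 2 the log2 fold change of Tbx20 was 0.47 and the adjusted p 0.0523. Tbx5 (chr5:119832668-119885219, plus strand), the T-box factor of chamber and conduction genes, had a similar estimate with more spread: 46.1, 43.3, 47.5 and 38.2 CPM in Tnnt2low against 29.9, 23.8, 47.1 and 35.1 CPM in Tnnt2high libraries. Its groups overlapped, and the difference of 0.37 on the log2 scale (standard error 0.21, adjusted p = 0.27) did not pass the test. It was 0.23 without Tnnt2high replicate 2 and 0.56 (adjusted p = 0.0832) without Tnnt2high replicate 3.

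Gata4 (chr14:63198922-63271692, minus strand), a zinc finger factor of cardiac differentiation and hypertrophic growth, lay at the edge of the threshold. It stood at 335.3, 326.7, 273.1 and 268.0 CPM in Tnnt2low and at 230.9, 251.6, 223.7 and 230.9 CPM in Tnnt2high libraries of Glut1 transgenic hearts. The groups did not overlap and the difference was positive in 4 of 4 hearts, at 0.21 to 0.54 on the log2 scale. The log2 fold change was 0.36 (standard error 0.13, adjusted p = 0.0623). With the heart as a replicate block the adjusted p was 0.0498, with DESeq2 0.0423, with the 8 Glut1 transgenic libraries alone 0.0446 and with robust dispersions 0.049. It was above the threshold under the other alternatives, at 0.0748 with DESeq2 size factors, 0.094 with upper quartile scaling, 0.0751 without the filter on low counts, 0.0861 with thinned libraries, 0.207 with the length and GC offset, 0.0872 with that offset and the block, and 0.0577 to 0.174 with 1 library left out. Its relative Gata6 (chr18:11052064-11085635, plus strand) overlapped between the populations, at 152.4 to 189.4 CPM in Tnnt2low and 146.6 to 184.6 CPM in Tnnt2high libraries, and its log2 fold change was 0.08, with a standard error of 0.14 (adjusted p = 0.747).

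Nkx2-5 and Hand2 had estimates below 0. Nkx2-5 (chr17:26838664-26845009, minus strand), the homeodomain factor of early cardiac commitment, stood at 114.4, 145.0, 137.3 and 119.0 CPM in Tnnt2low and at 163.9, 166.8, 124.0 and 138.8 CPM in Tnnt2high libraries. The log2 fold change was -0.20 (standard error 0.13, adjusted p = 0.326), and 3 of 4 hearts had less in Tnnt2low cells. Hand2 (chr8:57320983-57324633, plus strand), which acts in the right ventricle and in the second heart field, stood at 125.3 to 153.9 CPM in Tnnt2low and 126.7 to 156.7 CPM in Tnnt2high libraries. Its log2 fold change was -0.13 (standard error 0.14, adjusted p = 0.545). The antisense gene Hand2os1 covers 19.6% of the exon bases of Hand2, and reads there cannot be assigned to one strand.

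Meis1 (chr11:18879817-19018985, minus strand) did not pass the test between the populations. It stood at 41.9, 42.3, 57.2 and 67.4 CPM in Tnnt2low and at 38.5, 48.7, 39.9 and 61.2 CPM in Tnnt2high libraries of Glut1 transgenic hearts. The groups overlapped through most of their range. The log2 fold change was 0.15 (standard error 0.2, adjusted p = 0.671), and single hearts ran from -0.20 to 0.52. Leaving out the highest library of either group moved the log2 fold change, to 0.00 without Tnnt2low replicate 4 and to 0.30 without Tnnt2high replicate 4. Of its exon bases, 9.8% are shared with the gene model Gm37818 on the same strand and 8.5% with Gm16140 on the opposite strand.

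**Figure D3:**
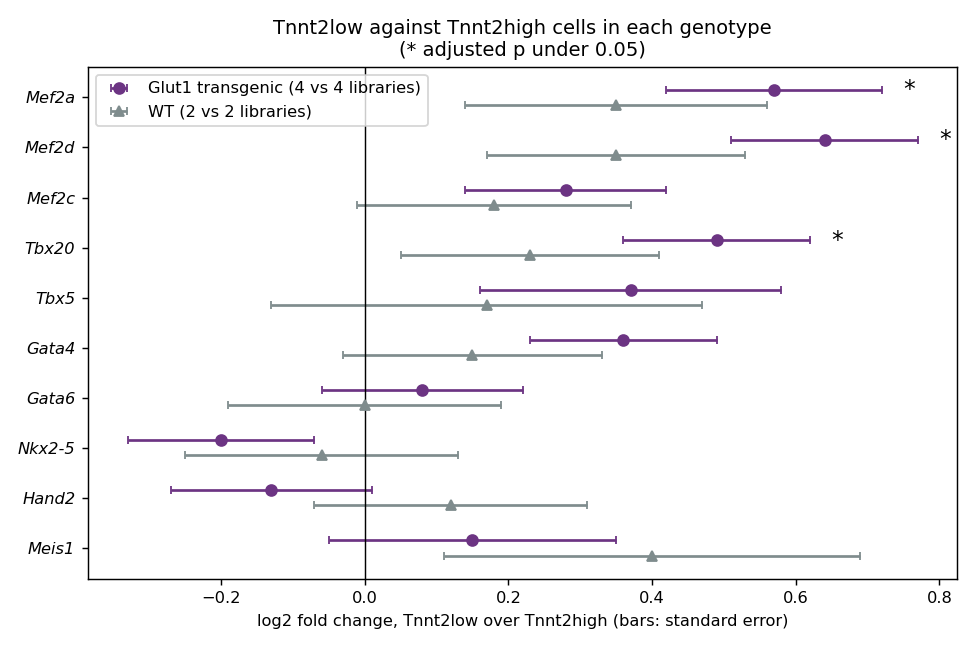
Log2 fold change of Tnnt2low over Tnnt2high cells for the 10 genes in Glut1 transgenic (circles) and WT hearts (triangles), with standard errors as bars. Asterisks mark an adjusted p under 0.05, which Mef2a (0.57), Mef2d (0.64) and Tbx20 (0.49) reached in Glut1 transgenic hearts and no gene in WT hearts.

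Fold changes between the populations of Glut1 transgenic hearts ran with transcript length across the whole table. Over 12187 tested genes with an annotated length, Spearman's rho between the log2 fold change and the length of the longest transcript was 0.51, and with its GC content -0.05, given as a description since all genes share the same libraries. Between the WT populations these values were 0.33 and -0.07, so the trend with length was not particular to Glut1 transgenic hearts. The 10 genes are spread over the range of lengths. The longest transcript of Tbx20 is 9091 bases, longer than in 96.2% of tested genes, that of Mef2a 5538 bases (80.9%) and that of Mef2d 5401 bases (79.7%). The genes with estimates below 0 have the shortest, at 1525 bases for Nkx2-5 (11.7%) and 2351 bases for Hand2 (26.9%). The order is not strict, since Meis1 at 7553 bases (92.4%) and Mef2c at 6277 bases (86.2%) are longer than Mef2a and Mef2d and had the smaller, uncalled differences of 0.15 and 0.28. Once each library was given a length and GC offset, the log2 fold change of Mef2a was 0.41 (adjusted p = 0.0971), of Mef2d 0.38 (adjusted p = 0.0855) and of Tbx20 0.21 (adjusted p = 0.332), and none of the 10 genes was called. The share of all tested genes called higher fell from 8.42% to 1.35% with this offset. With the heart as a block beside the offset, Mef2a alone was called, at 0.41 (adjusted p = 0.0363). Gata4, of a length near the median of 3476 bases, moved little, to 0.30 (adjusted p = 0.207). Nkx2-5 turned to 0.12, Hand2 to 0.01, Gata6 to -0.02 and Meis1 to -0.13. Reads outside exons were likewise more numerous in every Tnnt2high than in every Tnnt2low library of Glut1 transgenic hearts, so they and the sorted population cannot be told apart here.

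**Figure D4:**
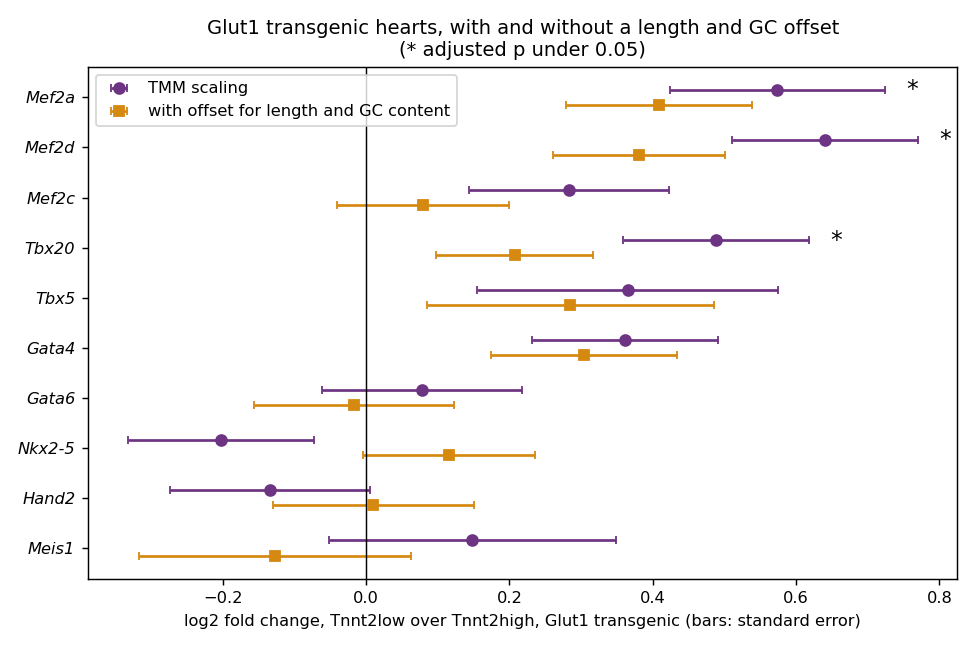
Log2 fold change of Tnnt2low over Tnnt2high cells in Glut1 transgenic hearts for the 10 genes, with TMM scaling (circles) and with the length and GC offset (squares). Bars are standard errors and asterisks mark an adjusted p under 0.05. With the offset Mef2a, Mef2d and Tbx20 fall to 0.41, 0.38 and 0.21 and lose the call.

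The same comparison in WT hearts called none of the 10 genes. No tested gene was called higher or lower (0% each way, edgeR), with 147 genes higher and 234 lower at an unadjusted p under 0.05, and DESeq2 called 3 genes, none of the 10. None of the 10 had an unadjusted p under 0.05. Their estimates were positive for 8 of 10, with a median log2 fold change of 0.17. Meis1 had the highest, 0.40 (standard error 0.29), followed by Mef2d at 0.35 (standard error 0.18) and Mef2a at 0.35 (standard error 0.21). Tbx20 was at 0.23, Mef2c at 0.18, Tbx5 at 0.17, Gata4 at 0.15, Hand2 at 0.12, Gata6 at 0.00 and Nkx2-5 at -0.06. For Mef2d and Meis1 both Tnnt2low libraries lay above both Tnnt2high libraries, 2 genes of 10, where 15.3% of all tested genes did so.

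The WT estimates turned on which Tnnt2high library was read. Mef2a stood at 437.5 and 494.1 CPM in WT Tnnt2low and at 257.9 and 472.4 CPM in WT Tnnt2high libraries. Tbx20 stood at 399.2 and 484.0 CPM in the first and at 299.4 and 454.4 CPM in the second. Replicate 2 of WT Tnnt2high was thus at the level of Tnnt2low cells for both genes, and replicate 1 below every Glut1 transgenic Tnnt2high library. Without Tnnt2high replicate 2 the WT log2 fold change was 0.86 for Mef2a, 0.57 for Tbx20 and 0.55 for Mef2d, and without replicate 1 it was -0.02, -0.04 and 0.19, with no call either way. The 2 libraries also differed in reads outside exons (1.83 for replicate 1 and 1.51 for replicate 2, for each read in a gene), in the sum of fibroblast markers (465.1 and 103.0 CPM) and in that of endothelial markers (332.9 and 15.5 CPM). The part of these in the WT values was not tested. Mef2d stood at 157.4 and 141.9 CPM in WT Tnnt2low and at 103.1 and 131.1 CPM in WT Tnnt2high libraries, and Meis1 at 61.9 and 39.8 CPM against 38.5 CPM in each. The estimate for Meis1 rested on 1 Tnnt2low library, since it was 0.05 without replicate 1 of WT Tnnt2low and 0.68 without replicate 2.

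**Figure D5:**
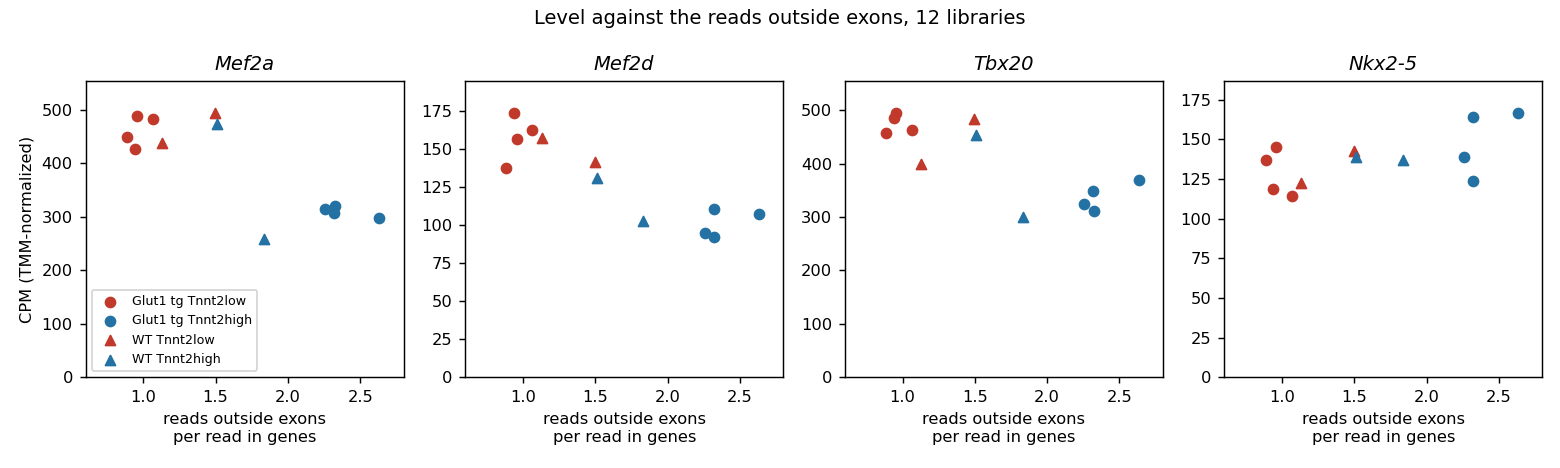
Level of Mef2a, Mef2d, Tbx20 and Nkx2-5 (TMM-normalized CPM, axes from 0) against the reads outside exons for each read in genes, with 1 point for each of 12 libraries. Red is Tnnt2low, blue Tnnt2high, circles Glut1 transgenic and triangles WT. Glut1 transgenic libraries fall into 2 separate clusters, at 0.886 to 1.07 and at 2.26 to 2.63, and the WT Tnnt2high library at 1.51 sits beside the Tnnt2low libraries for Mef2a.

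The second question was whether extra GLUT1 changed the factors within a population. In Tnnt2low cells none of the 10 genes was called between Glut1 transgenic and WT hearts (edgeR), and none had an unadjusted p under 0.05. Of all tested genes 0% were called higher and 0.00816% lower, which is 1 gene, the histone gene Hist1h2bj, named after its value was seen. At an unadjusted p under 0.05, 114 genes were higher and 142 lower, and DESeq2 called 6 genes, none of the 10. The log2 fold changes ran from -0.29 (Hand2) to 0.20 (Tbx5). Hand2 was the 1 gene of the 10 with every Glut1 transgenic Tnnt2low library (130.3, 125.3, 126.3 and 153.9 CPM) below both WT libraries (163.6 and 163.0 CPM), where 6.02% of all tested genes were so placed. Its log2 fold change of -0.29 had a standard error of 0.16 and an adjusted p of 1.0. Mef2a differed by -0.01, Meis1 by 0.04, Mef2d by 0.08 and Tbx20 by 0.11 on the log2 scale.

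In Tnnt2high cells none of the 10 was called between the genotypes either, and none had an unadjusted p under 0.05. No tested gene was called by edgeR (0% each way), with 266 higher and 384 lower at an unadjusted p under 0.05, and DESeq2 called 5 genes, none of the 10. The log2 fold changes ran from -0.24 (Mef2a, standard error 0.18) to 0.29 (Meis1, standard error 0.25). Meis1 was the 1 gene of the 10 with all 4 Glut1 transgenic libraries above both WT libraries, although the nearest of them are equal at the printed digits (38.5 CPM), where 5.9% of all tested genes were so placed. For Mef2a the estimate was -0.61 without WT Tnnt2high replicate 1 and 0.27 without replicate 2. Replicates 2 and 4 of the Glut1 transgenic hearts read Ddx3y, a Y-linked gene, at 56.4 to 65.2 CPM in both populations, and all WT libraries read Xist in its place, so sex differed in part with the genotype. Without the 4 libraries that read Ddx3y, Meis1 was at 0.03 and Mef2a at -0.22, again without a call.

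The difference of the population effect between the genotypes was tested as an interaction and called none of the 10 genes, none of which had an unadjusted p under 0.05. No gene of the table was called (0% each way, edgeR), with 284 higher and 270 lower at an unadjusted p under 0.05, and DESeq2 called 5 genes, none of the 10. The interaction was 0.29 (standard error 0.22) for Mef2d, 0.26 (standard error 0.22) for Tbx20 and 0.22 (standard error 0.26) for Mef2a, and -0.25 for both Hand2 (standard error 0.23) and Meis1 (standard error 0.35), on the log2 scale. The larger estimates for Mef2a, Mef2d and Tbx20 in Glut1 transgenic than in WT hearts are therefore not shown to differ between the genotypes.

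Other genes of these pathways were taken from lists, and the Glut1 transgenic populations were compared for each. Of 27 relatives and partners of the factors, 22 were tested, with 2 called higher and 1 lower in Tnnt2low cells and a median log2 fold change of 0.34. Over all tested genes 8.42% were called higher and 8.33% lower, with a median of -0.006, so the counts of this list and of the next lay near those of the whole table. Among those called were Myocd, the coactivator of serum response factor in cardiac and smooth muscle (0.54, standard error 0.13, adjusted p = 0.012), and Hopx, a homeodomain-only protein that restrains serum response factor (-0.62, standard error 0.13, adjusted p = 0.00743). Gata5, Isl1 and Pbx4 were read at most 4 times in a library and Mef2b and Nkx2-6 never, and these 5 were not tested. Of 16 regulators of MEF2, all tested, 2 were called higher and 0 lower, with a median of 0.36. They were the calcineurin subunit Ppp3ca (0.59, standard error 0.15, adjusted p = 0.0156) and the calcium and calmodulin dependent kinase Camk2g (0.48, standard error 0.12, adjusted p = 0.0165), and none of the histone deacetylases Hdac4, Hdac5, Hdac7 and Hdac9 passed. With the length and GC offset 0 genes of both lists were called, and the medians were 0.37 and 0.11.

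Target genes of the factors moved both ways. Of 22 tested, 6 were called higher and 6 lower in Tnnt2low cells of Glut1 transgenic hearts, with a median of -0.07, where 8.42% and 8.33% of all tested genes were. Among the higher were Ryr2, the calcium release channel (5772.6 ± 383.7 against 3783.5 ± 488.4 CPM, SD, n = 4, log2 fold change 0.61), and Slc8a1, the sodium and calcium exchanger (0.50). Those with the smallest p among the lower were Myl2, the ventricular myosin light chain (10557.2 ± 944.9 against 19778.5 ± 2179.2 CPM, SD, n = 4, log2 fold change -0.91), and the troponin genes Tnni3 (-0.82) and Tnnc1 (-0.72). With the offset Ryr2 was at 0.20 (adjusted p = 0.241), Slc8a1 at 0.12 (adjusted p = 0.459), Myl2 at -0.26 (adjusted p = 0.107) and Tnni3 at -0.19 (adjusted p = 0.17), and none of these 4 was called. In WT hearts none of the 22 was called, with a median of -0.10.

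Of the 11 genes around Meis1, which are cyclin-dependent kinase inhibitors, hypoxia factors, Hoxb13 and Calr, 8 were tested. Of these 8, 1 was called higher and 0 lower in Tnnt2low cells of Glut1 transgenic hearts, where 8.42% and 8.33% of all tested genes were. It was Cdkn2c, which encodes the inhibitor p18, at 34.2 ± 7.06 CPM against 18.1 ± 4.93 CPM (SD, n = 4). Its log2 fold change was 0.91 (standard error 0.21, adjusted p = 0.00995), and it kept its call with the offset (1.03, adjusted p = 0.024). In WT hearts Cdkn2c was at 29.0 ± 3.36 CPM in Tnnt2low and 32.7 ± 2.24 CPM in Tnnt2high libraries (SD, n = 2). The median of the list was 0.14 in Glut1 transgenic hearts, with 5 of 8 above 0, and -0.19 in WT hearts, with 2 of 8 above 0. Hoxb13, a cofactor of Meis1 in postnatal cardiomyocytes, was not read in any library, and Cdkn2a and Cdkn2b, cell cycle inhibitors known as Meis1 targets, were read at most 17 and 8 times in a library and were not tested. None of the 4 lists had a call between the genotypes, in WT hearts or for the interaction.

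The 10 genes also varied together to different degrees. Pearson's r of log2 CPM over the 12 libraries, a description in which all points share the libraries and their reads outside exons, was 0.93 between Mef2a and Tbx20, 0.90 between Tbx20 and Gata4, 0.90 between Mef2a and Gata4 and 0.85 between Mef2a and Mef2d. It was -0.61 between Nkx2-5 and Mef2d and -0.65 between Nkx2-5 and Tbx5. Among the 7961 genes that averaged 10 CPM or more, the 3 with patterns most like Mef2a were Lmo7 (0.98), Prkaa2 (0.97) and Tshz1 (0.96). Dip2c (0.97), Tnks (0.97) and Dvl3 (0.96) were nearest to Mef2d, and Mtmr3 (0.97), Rock1 (0.95) and Qser1 (0.95) to Tbx20. For Gata4 they were Zfp651 (0.97), Qser1 (0.97) and Arhgap11a (0.96), for Mef2c Lbh (0.95), Rapgef6 (0.94) and Lnpep (0.93), and for Tbx5 Gtf2a1, Zfp369 and Smad3 (0.93 each). Nkx2-5 was nearest to Pln, the gene for phospholamban (0.92), Gbe1 (0.92) and Pls3 (0.90). Gata6 was nearest to Tigd2 (0.89), Per1 (0.86) and Ctnna1 (0.85), and Meis1 to Flrt2 (0.89), Inpp5j (0.88) and Hars2 (0.87). Hand2 had the weakest matches, Rpl14-ps1 (0.78), a pseudogene whose count is uncertain, Rnft1 (0.77) and Spg21 (0.77).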

How the data were processed

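The deposited values were raw counts of reads per gene, 1 table for each library. According to the study's methods, the authors extracted RNA with the RNeasy kit, made libraries with an Illumina mRNA kit, sequenced single-end reads of 50 bp, trimmed bases under a Phred score of 20, mapped with HISAT2 to mm10, counted with HTSeq over the union of exons and tested with DESeq2. The labels describe the extract as heart tissue and the methods as sorted cells. For tool versions, counting mode and strand, no value was given in the sources used here. The 5 totals that name no gene stayed out of library sizes. Reads outside exons, not uniquely aligned or ambiguous took 73.6% on average of the records in those totals and in genes. The totals of unaligned and low-quality reads do not enter this share.

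The main test was the quasi-likelihood test of edgeR 4.0.16 under R 4.3.3 (filterByExpr, TMM) in 1 fit of 12 libraries and 4 groups, with Benjamini-Hochberg adjustment over 12252 genes and a prior count of 2 for log CPM. DESeq2 1.42.0 was an alternative. Lengths, GC content and positions came from GENCODE vM21 on GRCm38 for 98.46% of 24421 symbols. The length and GC offset was a loess fit in each library (span 0.3) over 99.5% of tested genes. Figures were drawn in Python 3.11.15 with matplotlib 3.10.9. Libraries of 1 heart share a number in the labels, and these numbers were taken to pair the libraries. Deviations from the group means correlated in every Glut1 transgenic pair (r = 0.107 to 0.226). In WT r was 0.271, and with 2 libraries in a group both pairs must give the same value. Libraries with different numbers were not correlated, so these r have no baseline. Nothing says that WT libraries come from separate hearts, and p-values measure the spread between libraries. No pair of replicates was alike within counting noise (chi-square 13.4 to 26.5 for each gene, over 14 pairs). Counts were also simulated (11995 genes) at the spread of the fit of 12 libraries, with changes placed in Glut1 transgenic Tnnt2low. Of genes changed by 1.5-fold 2.04% were called and of those changed by 2-fold 38.8%, with 10 false calls of 100. The changed genes were drawn at random from the tested genes of any level, so these shares are not those of the 10 genes.

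The 10 genes and the lists were chosen with earlier results of these data known. Genes named were the 10, up to 3 called genes in each direction for each list by smallest p in the Glut1 transgenic populations, and the 3 genes with the highest Pearson's r to each of the 10. Values of 2 genes that this rule names are left out.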

Additional observations from a re-analysis of the deposited data

Results flagged for a closer look

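Among 20 groups of 4 libraries, the 10 genes in each Glut1 transgenic population, 1 library stood far from the others by Dixon's criterion. Hand2 was at 126.7 CPM in replicate 1 of Glut1 transgenic Tnnt2high cells and at 151.6 to 156.7 CPM in the other 3 libraries. The gap to the nearest was 0.83 of the range, just past the 95% critical value for 4 values. Chance flags about 1 in 20 groups.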

How the results depend on the processing

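For 36 fold changes reported, 329 values under 11 alternatives kept direction and side of the threshold, 11 turned direction, 5 lost a call and 4 gained one. The 3 calls of Mef2a, Mef2d and Tbx20 in the populations of Glut1 transgenic hearts held under another scaling, no filter, robust dispersions, the replicate block, thinned libraries and DESeq2. They fell to 0 calls with the length and GC offset and to 1 (Mef2a) with the replicate block and that offset, and the cause was not tested. The pairing by heart (replicate block) added Gata4 (adjusted p = 0.0498) and changed no other call. Leaving out 1 library gave 2 to 3 calls. The length and GC offset, without and with the replicate block, turned Gata6 to -0.017 and -0.012, Nkx2-5 to 0.116 and 0.113, Hand2 to 0.01 and 0.008 and Meis1 to -0.127 and -0.134 in Glut1 transgenic hearts, and Nkx2-5 to 0.016 and 0.017 in WT hearts. Meis1 between genotypes in Tnnt2low cells was -0.039 without the libraries that read Ddx3y. Leaving out 1 library at a time gave these ranges of log2 fold changes that crossed 0. Between the WT populations they were -0.063 to 0.41 for Gata4, -0.196 to 0.206 for Gata6, -0.177 to 0.053 for Nkx2-5, -0.162 to 0.626 for Tbx5, -0.044 to 0.571 for Tbx20, -0.122 to 0.414 for Hand2, -0.024 to 0.863 for Mef2a and -0.022 to 0.418 for Mef2c. Between genotypes in Tnnt2low cells they were -0.104 to 0.08 for Mef2a, -0.032 to 0.254 for Tbx20 and -0.246 to 0.385 for Meis1. In Tnnt2high cells they were -0.613 to 0.273 for Mef2a, -0.429 to 0.185 for Tbx20 and -0.349 to 0.034 for Gata6. For the interaction they were -0.288 to 0.601 for Mef2a, -0.081 to 0.536 for Tbx20 and -0.532 to 0.095 for Meis1. With 1 library left in a WT group, its spread is assumed to be that of the other groups. No gene of the 10 was called in WT hearts, between genotypes or for the interaction under any alternative run. The longest transcript as the length moved the levels of Gata6 (46.6), Nkx2-5 (90.2), Tbx20 (44.8), Mef2a (71.4), Mef2c (12.8) and Meis1 (6.35) by more than 1 SD. Depth limits Tbx5 and Meis1 most, with 87 and 161 reads in their lowest libraries.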
